A study of Equus caballus with 17 samples.

Results

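Adult horse testis was compared with testis labelled Pre-puber, the stage before puberty, by small RNA sequencing of 4 Adult libraries (numbered 13, 20, 33 and 4) and 3 Pre-puber libraries (3a, 3b and 14). These are 7 of the 17 libraries of a study of horse (Equus caballus) testis and sperm that follows spermatogenesis over 5 stages. Both groups are whole testis, and the labels name the stage but give no breed, age in years, treatment or genotype. The libraries were chosen by stage label, and the features by the deposited table, whose 1763 entries hold 274 annotated mature miRNAs and 1461 predicted hairpins. Levels of both are given in CPM, a library's counts scaled by its total of annotated miRNA counts and then by TMM, which corrects for the few features that fill a library. Counts of annotated miRNAs ran from 2.18 to 4.62 M (mega) in Adult (mean 3.60 ± 1.07 M, SD, n = 4) and from 8.11 to 13.1 M in Pre-puber (mean 9.85 ± 2.83 M, n = 3), so the Adult libraries were the shallower ones.

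MicroRNAs are short RNAs cut from hairpin precursors. They guide Argonaute proteins to partly matching sites in mRNAs, chiefly through bases 2 to 8 of the miRNA, the seed, and so lower the output of those mRNAs. Before puberty the seminiferous tubules hold mostly Sertoli cells and spermatogonia. At puberty spermatocytes and then spermatids fill them, and in other mammals miRNAs of the miR-34/miR-449 family are known to be abundant in these meiotic and later germ cells.

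One Pre-puber library stood apart. Over the tested miRNAs, log2 CPM of Pre-puber 14 correlated with Pre-puber 3a and 3b at r = 0.944 and 0.934, and with the 4 Adult libraries at r = 0.953 to 0.963. Pre-puber 3a and 3b correlated at r = 0.987 with each other and at r = 0.861 to 0.880 with the Adult libraries. These correlations are across 184 miRNAs, which are not independent replicates. Pre-puber 14 therefore lay nearer to the Adult libraries than to the other libraries of its own label, and the values without it are given beside results that it moved. The labels do not say whether 3a and 3b, which share a title number, came from 1 animal, and name no animals at all, so every p-value here rests on a spread between libraries that may be technical. All pairs of libraries within a group differed by far more than counting noise.

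After a filter on low counts, 184 of the 274 annotated miRNAs were tested with edgeR's quasi-likelihood test, and 51 (27.7%) passed a Benjamini-Hochberg adjusted p under 0.05. Of these, 23 (12.5%) were higher and 28 (15.2%) lower in Adult. The higher miRNAs had a median log2 fold change of 2.59 (0.94 to 5.94), the lower ones of −1.57, with falls from 0.96 to 3.12 on the log2 scale, and all 184 of −0.07. The higher miRNAs held 0.334 to 0.952% of annotated counts in Pre-puber libraries and 6.49 to 9.13% in Adult libraries, whereas the lower ones went from 26.8 to 27.9% to 10.9 to 15.8%. For 63 of the 184 miRNAs (34.2%), among them 42 of the 51 called, no Adult library lay within the Pre-puber range or the reverse. The other 90 miRNAs were not tested: 41 had no count in the 7 libraries, and the remaining 49 had at most 50.

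**Figure D1:**
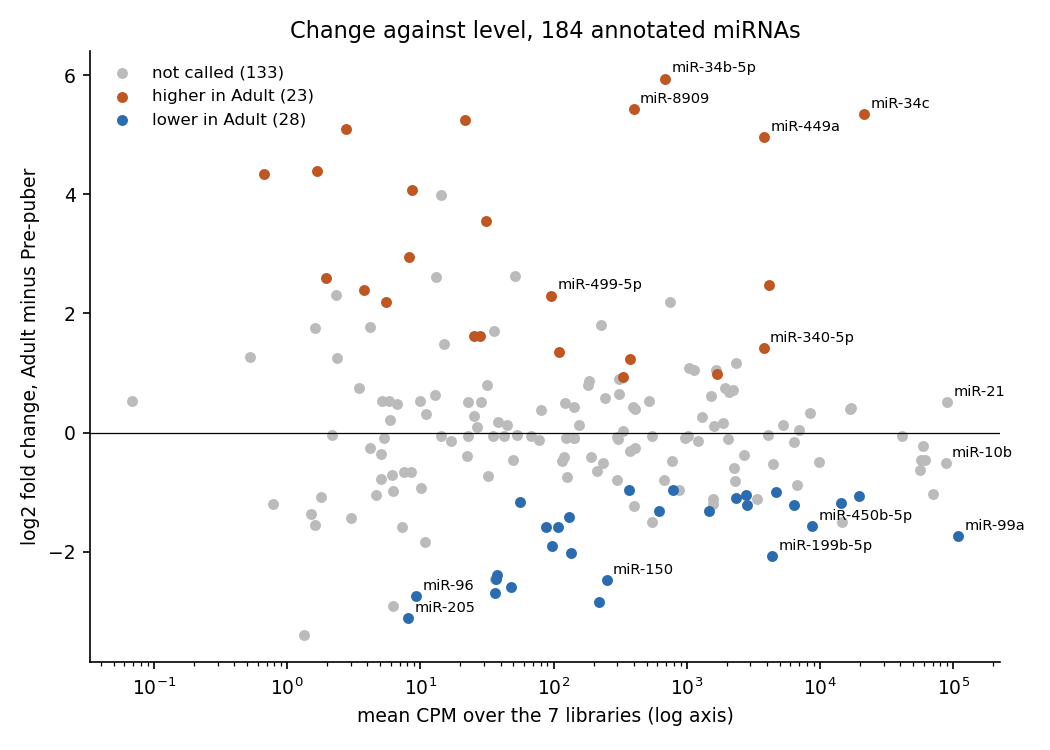
Each point is 1 of the 184 tested annotated miRNAs, with its mean CPM over the 7 libraries (log axis) against its log2 fold change, Adult minus Pre-puber. The 23 higher miRNAs (orange) reach 5.94 and include the abundant miR-34c, the 28 lower ones (blue) include miR-99a, and the rest (grey) did not pass the test.

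Without Pre-puber 14, 70 miRNAs passed, 35 in each direction, and 22 of the 23 higher and 24 of the 28 lower miRNAs were among them. The median of the 23 was then 4.07 and that of the 28 was −1.54. Without 3a or 3b the calls fell to 25 (7 higher, 18 lower) and 28 (8 higher, 20 lower). Without Adult 13 or Adult 4 they fell to 30 and 31. With the counts of libraries of 1 title number summed (3a with 3b among them), 29 of the 51 passed. Of the 23 higher miRNAs 8 did so (miR-34b-5p, miR-34c, miR-449a, miR-449b, miR-499-5p, miR-340-5p, miR-8993 and miR-9054) and 15 did not. Of the 28 lower ones 21 did so, and miR-98, miR-182, miR-196b, miR-135a, miR-1271a, miR-1298 and miR-1388 did not. In all, 19 miRNAs, 7 higher and 12 lower, passed in each of the 7 fits that left out 1 library. Scaling moved the median of all miRNAs, by 0.15 with RLE factors, by −0.17 with upper-quartile factors and by 0.45 with library totals alone. With totals alone, 33 miRNAs were higher and 14 lower. In that fit these falls did not pass: miR-125b-5p, miR-1271a, miR-135a, miR-155, miR-181a, miR-181b, miR-193a-5p, miR-196b, miR-199a-5p, miR-335, miR-411, miR-450a, miR-450c and miR-98. With annotated miRNAs and hairpins fitted together the median was −2.27, 3.26% of the miRNAs were higher and 73.9% lower, and 8 of the 23 (miR-122, miR-18a, miR-217, miR-32, miR-340-5p, miR-374b, miR-93 and miR-9a) had a negative log2 fold change. In whole tissue, fewer cells of a type and less RNA per cell cannot be told apart.

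The miR-34/miR-449 family gave 4 of the 6 largest rises by log2 fold change, the other two being miR-8909 and miR-9054. Its members have closely related seeds and are known to act redundantly in multiciliated cells and in male germ cells. Of its 5 members, all tested, 4 rose and none fell, where 12.5% of all tested miRNAs were higher. miR-449b was rare in Pre-puber and Infant and entered the test through the later stages, where it is higher. The number that rose is therefore not evidence on the family. The list median was 5.25 against −0.07 for all miRNAs. miR-34c was counted at 37.7 CPM in Pre-puber 3a, 70.5 CPM in 3b and 2621 CPM in 14, and at 40856, 39942, 34476 and 32500 CPM in Adult 13, 20, 33 and 4. Every Adult library was thus above every Pre-puber library, and Pre-puber 14 lay far above 3a and 3b. Its log2 fold change was 5.34 ± 1.27 (SE; edgeR adjusted p = 0.0107), and 9.42 without Pre-puber 14. miR-34c held 0.00426%, 0.00627% and 0.230% of annotated counts in the Pre-puber libraries and 3.82 to 5.82% in Adult, and went from rank 57 to rank 10 by mean level.

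miR-34b-5p, from the same precursor transcript as miR-34c, stood at 1.48, 2.57 and 54.6 CPM across Pre-puber 3a, 3b and 14 and at 1330, 1347, 1011 and 1093 CPM in Adult 13, 20, 33 and 4. The Adult libraries were within a narrow range, all far above Pre-puber, and the log2 fold change was 5.94 ± 1.18 (edgeR adjusted p = 0.00361), or 9.22 without Pre-puber 14. miR-449a stood at 5.53, 7.18 and 619 CPM in Pre-puber and at 8192, 4394, 6946 and 6589 CPM in Adult, so that Pre-puber 14 again lay between the other Pre-puber libraries and Adult. Its log2 fold change was 4.96 ± 1.38 (edgeR adjusted p = 0.0211), or 10.01 without Pre-puber 14, and it did not pass in a fit of the 7 libraries alone. miR-449b was far less abundant, at 0.135 to 2.52 CPM in Pre-puber and 18.2 to 60.7 CPM in Adult, and rose by 5.25 ± 1.02 on the log2 scale (edgeR adjusted p = 0.00361), or by 7.06 without Pre-puber 14. By contrast, miR-34a, encoded at its own locus, stood at 46.6 to 84.5 CPM in Pre-puber and 48.7 to 76.7 CPM in Adult. Its log2 fold change was −0.06 ± 0.34 (edgeR adjusted p = 0.928). miR-34b-5p and miR-34c lie next to each other within HOATZ, a gene for a protein of cilia and flagella, and miR-449a and miR-449b within CDC20B, in the RefSeq gene table of assembly TB-T2T.

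**Figure D2:**
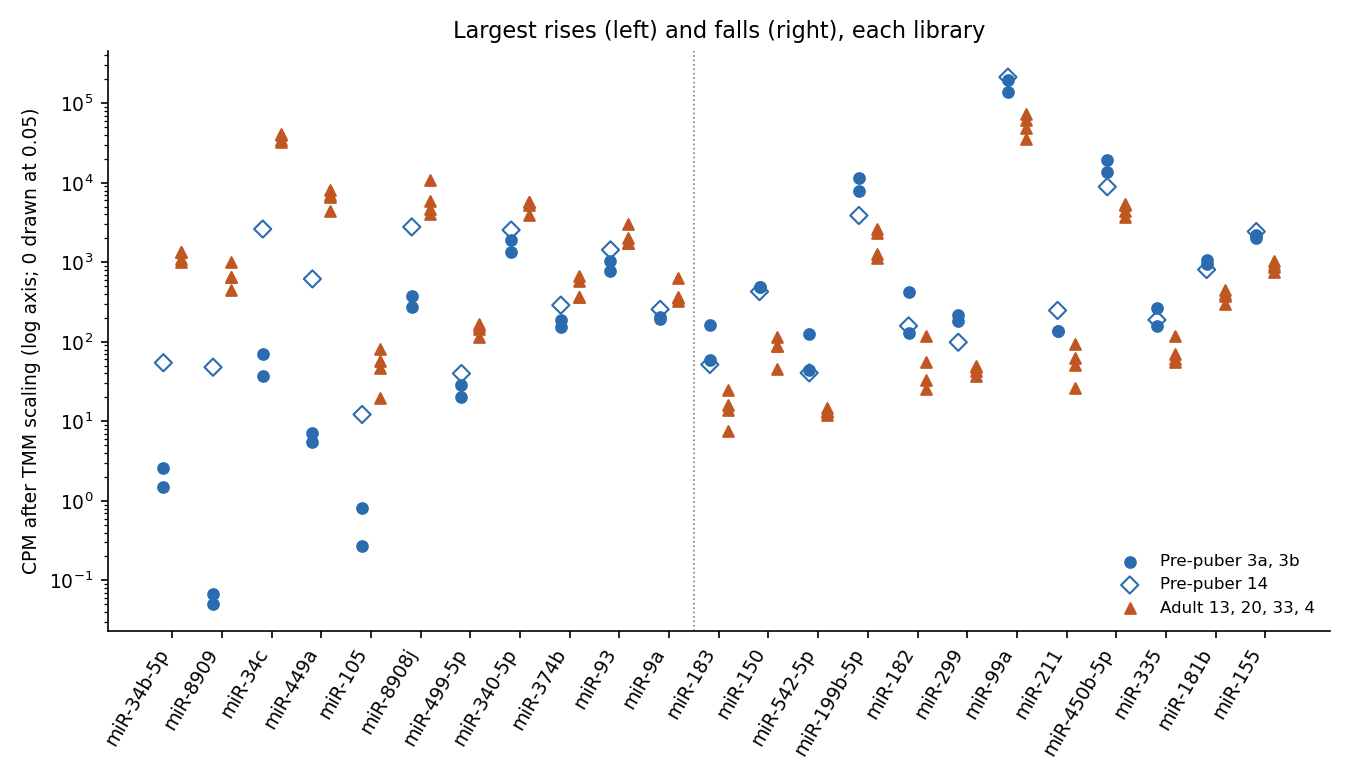
CPM in each library (log axis) for the 11 rises and 12 largest falls with at least 50 CPM in a group and no overlap between groups; blue points are Pre-puber (open diamond, Pre-puber 14) and orange triangles Adult. In the leftmost miRNAs Pre-puber 14 lies between the other Pre-puber libraries and the Adult libraries.

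Among the miRNAs numbered in the range miR-8900 to miR-9199, a set first described in the horse and of little known function, 20 of 72 were tested, and miR-8909, miR-8908j, miR-8993, miR-9049, miR-9052 and miR-9054 passed as higher. miR-8993, miR-9049, miR-9052 and miR-9054 had no count in Pre-puber 3a, 3b or any Infant library and entered the test through the later stages, where they are higher, so the number that passed is not evidence on the set. miR-8909 stood at 0.0674, 0 and 48.0 CPM across Pre-puber 3a, 3b and 14 and at 645, 1003, 445 and 659 CPM in Adult, a log2 fold change of 5.43 ± 1.82 (edgeR adjusted p = 0.0432). That call passed in 2 of the 7 fits that left 1 library out. Without Pre-puber 14 the value was 13.4 (edgeR adjusted p = 6.9e-05), a size set by a near-zero level in 3a and 3b. miR-8908j stood at 272, 383 and 2786 CPM in Pre-puber and at 4000, 10934, 5972 and 4638 CPM in Adult, a log2 fold change of 2.48 ± 0.82 (edgeR adjusted p = 0.0428), and 4.28 without Pre-puber 14. It passed in 3 of the 7 fits that left 1 library out. Again Pre-puber 14 lay between the other Pre-puber libraries and Adult. Its neighbours miR-8908k, miR-8908f and miR-8908g had log2 fold changes from 1.70 to 2.61 and did not pass, although their groups did not overlap. Without Pre-puber 14 their values were 3.35, 6.005 and 4.01, and all passed (edgeR adjusted p = 0.00155, 0.000175 and 0.00035). The size for miR-8908f was set by a low level in 3a and 3b (0.135 and 0.542 CPM). miR-8993, miR-9052 and miR-9054 had 3, 1 and 3 counts in all Pre-puber libraries together, which gives ratios of 25.4 (95% exact counting interval 8.23 to 127.3), 29.3 (4.69 to 1216) and 36.7 (12.1 to 181.8), intervals that cover counting error only.

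miR-499-5p, which lies in the myosin heavy chain gene MYH7B, stood at 28.5, 20.3 and 39.97 CPM across Pre-puber 3a, 3b and 14 and at 146, 115, 156 and 165 CPM in Adult. The groups did not overlap, and the log2 fold change was 2.30 ± 0.34 (edgeR adjusted p = 0.00189). With all entries fitted together it was 0.13 and did not pass. It was the 1 annotated member of the striated muscle list in the table. miR-340-5p, from an intron of the ubiquitin ligase gene RNF130, stood at 1354, 1887 and 2550 CPM in Pre-puber and at 5719, 5767, 3989 and 5220 CPM in Adult, with no overlap (log2 fold change 1.42 ± 0.28, edgeR adjusted p = 0.00361). These 2 rises passed in each fit that left out 1 library. miR-374b, at 153 to 289 CPM in Pre-puber and 366 to 666 CPM in Adult, rose by 1.24 ± 0.34 on the log2 scale (edgeR adjusted p = 0.0199). It passed in 4 of the 7 fits that left out a library. miR-9a, a neural miRNA, rose by 0.94 ± 0.31 (edgeR adjusted p = 0.0428), from 194.6 to 257 CPM to 325 to 628 CPM, and passed in 1 of the 7 fits that left out a library. It was the 1 called miRNA of the neural list, whose 5 tested members had a median of −0.04, with 3 below 0.

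The miR-17-92 cluster and its paralogs promote cell proliferation. Among 8 members tested, 3 rose and none fell, where 12.5% of all tested miRNAs were higher. Of these members, miR-18b was rare in Pre-puber and Infant and entered the test through the later stages, where it is higher. The number that rose is therefore not evidence on the cluster. The median was 0.85, and −1.10 with all entries fitted together. miR-93, in an intron of the replication gene MCM7, stood at 773, 1047 and 1434 CPM across Pre-puber 3a, 3b and 14 and at 1753, 3053, 2010 and 1752 CPM in Adult, with no overlap (log2 fold change 0.98 ± 0.31, edgeR adjusted p = 0.0336). It passed in 2 of the 7 fits that left out a library. The others that rose were miR-18a, at 10.3 to 14.3 CPM in Pre-puber and 16.3 to 60.7 CPM in Adult, and miR-18b, whose groups overlapped (4.07 without Pre-puber 14). Each passed in 2 of the 7 fits that left out a library. miR-20b stood at 213, 59.4 and 3788 CPM in Pre-puber and at 2773 to 3551 CPM in Adult, so Pre-puber 14 was above all 4 Adult libraries. Its log2 fold change was 1.18 ± 0.94 (edgeR adjusted p = 0.348), and 4.48 without Pre-puber 14 (edgeR adjusted p = 6.8e-05). Without that library 6 of the 8 members rose, where 19.0% of all tested miRNAs were higher. miR-17 and miR-106a had nearly equal levels in every library, so reads of these near-identical sequences may have been counted for both, and their separate values are uncertain.

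Clusters known to be on the X chromosome went different ways. Of the miR-105/miR-767 pair, within the GABRA3 gene, miR-105 stood at 0.809, 0.271 and 12.2 CPM in Pre-puber and at 82.1, 46.5, 19.8 and 57.3 CPM in Adult, and rose by 3.56 ± 1.04 on the log2 scale (edgeR adjusted p = 0.0259), or by 6.42 without Pre-puber 14. It did not pass without 3a or without 3b. miR-767-5p, at 0.944 to 37.2 CPM and 35.03 to 117 CPM, had a log2 fold change of 2.63 ± 1.05 that did not pass (edgeR adjusted p = 0.0744) but did without Pre-puber 14 (6.21, edgeR adjusted p = 4.7e-05). In the miR-506 family region, which is expressed mainly in testis in other mammals, 0 of 5 members passed, where 27.7% of all tested miRNAs did. The region's median was −0.06, a sign that changed with other scalings. Its most abundant member, miR-509a-5p, stood at 10081, 4054 and 28841 CPM in Pre-puber and at 17435, 25568, 13416 and 18896 CPM in Adult, so the groups overlapped and Pre-puber 14 was the highest of the 7. The log2 fold change was 0.39 ± 0.51 (edgeR adjusted p = 0.578), and 1.40 without Pre-puber 14 (edgeR adjusted p = 0.018).

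The miR-424/miR-503/miR-450/miR-542 cluster, in which miR-424 and miR-503 are known for slowing the cell cycle, was lower in Adult. Of its 6 members, neighbours in the RefSeq table, 4 fell and none rose, where 15.2% of all tested miRNAs were lower. All 6 had a negative log2 fold change (median −1.35). miR-450b-5p stood at 13604, 19545 and 8919 CPM across Pre-puber 3a, 3b and 14 and at 4471, 5242, 3765 and 5473 CPM in Adult, a fall of every Adult library below every Pre-puber library. Its log2 fold change was −1.57 ± 0.30 (edgeR adjusted p = 0.00361). miR-542-5p stood at 44.5, 126 and 40.7 CPM in Pre-puber and at 14.7, 11.99, 13.3 and 13.7 CPM in Adult (log2 fold change −2.38 ± 0.58, edgeR adjusted p = 0.0112), and did not pass without Pre-puber 3b (−1.67). miR-450a and miR-450c fell by 1.04 and 1.00 on the log2 scale, and each passed in 4 of the 7 fits that left out a library. The log2 fold change of miR-424 was −1.20 ± 0.52 (edgeR adjusted p = 0.094), with no overlap between the groups.

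All 3 miRNAs of the miR-183/miR-96/miR-182 cluster, known for its high level in sensory cells, fell together (median −2.58), where 15.2% of all tested miRNAs were lower. miR-183 stood at 59.1, 164 and 51.9 CPM across Pre-puber 3a, 3b and 14 and at 13.8, 24.5, 7.48 and 16.1 CPM in Adult (log2 fold change −2.58 ± 0.55, edgeR adjusted p = 0.00519). miR-182 stood at 130, 420 and 159 CPM and at 33.0, 119, 25.6 and 55.6 CPM (−2.03 ± 0.62, edgeR adjusted p = 0.029). Pre-puber 3b was the highest library for both, Adult 20 the highest of the Adult ones, and the groups did not overlap. miR-96, at 10.7 to 31.5 CPM and 2.06 to 3.60 CPM, fell by 2.74 ± 0.55 (edgeR adjusted p = 0.00361). Without Pre-puber 3b the values of miR-183, miR-182 and miR-96 were −1.87, −1.33 and −2.08, and without Adult 20 that of miR-182 was −2.64. miR-182 passed in 3 of the 7 fits that left out a library, and the other members in all 7.

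miR-99a made the largest fall in amount. It was the most abundant miRNA of Pre-puber testis and belongs to the miR-99/100 family, which targets mTOR. It stood at 139443, 194120 and 213473 CPM across Pre-puber 3a, 3b and 14 and at 60905, 73995, 35533 and 48826 CPM in Adult, and took 15.8, 17.2 and 18.8% of annotated counts in Pre-puber against 5.56 to 8.67% in Adult. The groups did not overlap and Pre-puber 14 was the highest library, so for miR-99a it lay farthest from Adult. The log2 fold change was −1.73 ± 0.33 (edgeR adjusted p = 0.00361). Of the 5 members of the miR-99/miR-100/miR-125 families, miR-99a and miR-125b-5p fell, where 15.2% of all tested miRNAs were lower. The median was −0.88. miR-125b-5p stood at 17648 to 40309 CPM in Pre-puber and 9650 to 18047 CPM in Adult, with an overlap (log2 fold change −1.06 ± 0.31, edgeR adjusted p = 0.0259), and passed in 3 of the 7 fits that left out a library (not without Pre-puber 3a, Pre-puber 14, Adult 33 or Adult 4). It also did not pass with RLE factors, library totals alone, thinned counts, DESeq2 or the 7 libraries alone. miR-100, at 49551 to 80957 CPM and 43885 to 76250 CPM, had a log2 fold change of −0.22 ± 0.29 (edgeR adjusted p = 0.579). let-7c, the neighbour of miR-99a in the RefSeq table, had one of −0.63 ± 0.33 (edgeR adjusted p = 0.165).

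In the let-7 family, which favours differentiation, 1 of 7 members passed, where 15.2% of all tested miRNAs were lower: miR-98 fell by 0.96 ± 0.28 (edgeR adjusted p = 0.0259), from 914 to 1437 CPM to 447 to 698 CPM. miR-98 passed in 2 of the 7 fits that left out a library. The family's median was −0.46. Both miR-181 family miRNAs in the table fell: miR-181b stood at 1073, 952 and 811 CPM in Pre-puber and at 403, 381.3, 296 and 443 CPM in Adult (log2 fold change −1.31 ± 0.25, edgeR adjusted p = 0.00361), and miR-181a fell by 1.10 ± 0.27 (edgeR adjusted p = 0.0112). miR-181a passed in 5 of the 7 fits that left out a library, and did not pass with the 7 libraries alone. With library totals alone neither miR-181a nor miR-181b passed. miR-26a, at 91973 to 104809 CPM and 41607 to 64731 CPM, did not overlap between groups but just missed the threshold (log2 fold change −1.03 ± 0.37, edgeR adjusted p = 0.0537). None of the 4 miR-30 or 5 miR-15/16 family members passed (medians 0.01 and 0.13), where 27.7% of all tested miRNAs did. For the miR-30 family the sign of the median turned with upper-quartile scaling (−0.12), and for both families with all entries fitted together (−2.12 and −1.88). miR-195 of the miR-15/16 family had the largest value of these, −1.11 ± 0.43 (edgeR adjusted p = 0.0656). Without Pre-puber 14, miR-16 passed as higher (log2 fold change 1.18, edgeR adjusted p = 0.0266).

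Among miRNAs of imprinted regions, expressed from 1 parental allele, those of H19 and MEST both fell. miR-675, cut from the growth-limiting RNA H19, stood at 65.6, 128 and 14.0 CPM across Pre-puber 3a, 3b and 14 and at 15.5, 13.0, 9.55 and 12.1 CPM in Adult, so the groups overlapped through Pre-puber 14 (log2 fold change −2.46 ± 0.60, edgeR adjusted p = 0.0112). It did not pass without Pre-puber 3b (−1.68). miR-335, within MEST, stood at 159, 264 and 189 CPM and at 55.1, 60.9, 119 and 71.1 CPM (−1.41 ± 0.35, edgeR adjusted p = 0.0126). It passed in 4 of the 7 fits that left out a library. Of 17 DLK1-DIO3 miRNAs, 15 were tested, and 2 fell, a share no higher than the 15.2% of all tested miRNAs: miR-299, at 183.4, 217 and 98.9 CPM in Pre-puber and 37.1 to 49.9 CPM in Adult (−1.90 ± 0.32, edgeR adjusted p = 0.00322), and miR-411, at 6614 to 11043 CPM and 4018 to 4237 CPM (−1.21 ± 0.24, edgeR adjusted p = 0.00361). Both passed in each fit that left out 1 library. The region's median was −0.11, and it was 0.03 with RLE factors.

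**Figure D3:**
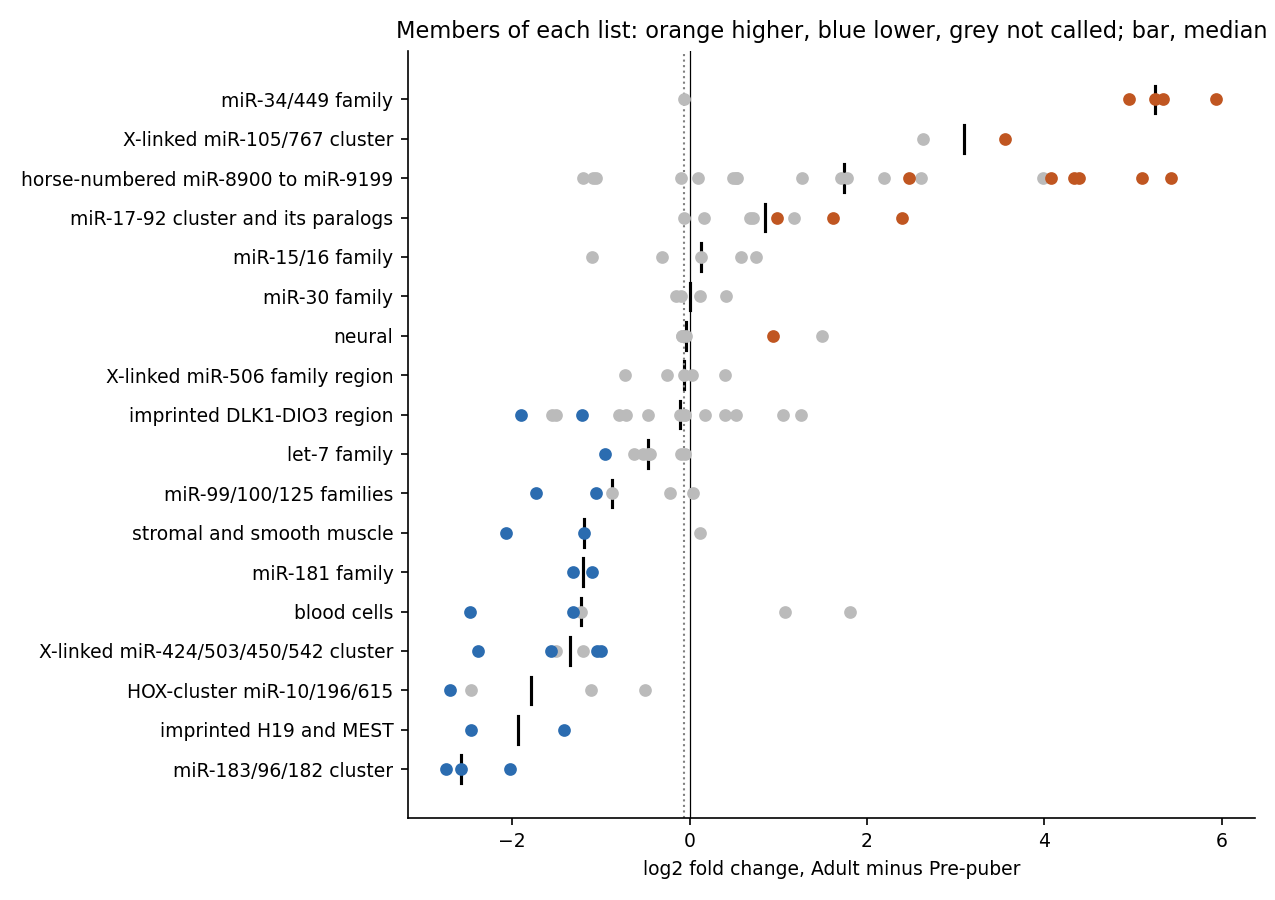
Log2 fold changes, Adult minus Pre-puber, of the tested members of each list with at least 2 of them; orange points passed the test as higher, blue as lower, grey did not pass, and the bar is the list's median. The dotted line is the median of all 184 miRNAs (−0.07); the miR-34/miR-449 family lies at the top with a median of 5.25 and the miR-183/miR-96/miR-182 cluster at the bottom with −2.58.

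miRNAs known from other cells of the testis also differed. Of the 3 stromal and smooth muscle miRNAs, miR-199a-5p and miR-199b-5p, which are known from fibroblasts, fell, where 15.2% of all tested miRNAs were lower. Their list summed to 31496 to 37770 CPM in Pre-puber and 14974 to 18816 CPM in Adult. miR-199b-5p stood at 7778, 11599 and 3879 CPM across Pre-puber 3a, 3b and 14 and at 1120, 2639, 1263 and 2343 CPM in Adult (log2 fold change −2.07 ± 0.44, edgeR adjusted p = 0.00519). miR-145, which marks smooth muscle, stood at 4242 to 5711 CPM and 4059 to 7965 CPM (0.12 ± 0.28, edgeR adjusted p = 0.80). Of 5 blood cell miRNAs, miR-150 and miR-155, known from immune cells, fell, again beside 15.2% of all tested miRNAs. miR-150 stood at 494.4, 492 and 428 CPM in Pre-puber and at 89.2, 88.3, 116 and 45.6 CPM in Adult (−2.48 ± 0.38, edgeR adjusted p = 0.00189), and miR-155 at 2035 to 2439 CPM and 760 to 1034 CPM (−1.31 ± 0.28, edgeR adjusted p = 0.00593). The red cell miRNAs miR-451 and miR-486-5p did not pass, at 31.7 to 188 CPM and 142.2 to 1288 CPM in Pre-puber, and at 1026 and 3191 CPM in Adult 33 against at most 107 and 821 CPM in the other Adult libraries. The blood list summed to 3005 to 5189 CPM in Pre-puber, to 5558 CPM in Adult 33 and to 1957 to 2149 CPM in the other Adult libraries. The part that a changing mix of cells plays in the falls was not tested.

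Endothelial miR-126-5p stood at 141.6 to 620 CPM in Pre-puber and 317 to 610 CPM in Adult (log2 fold change 0.43 ± 0.46, edgeR adjusted p = 0.498), with Pre-puber 14 the highest. Its log2 fold change without that library was 1.26, which passed (edgeR adjusted p = 0.0292). miR-122, best known from liver, was low at 5.42 to 26.2 CPM and 24.4 to 52.8 CPM, and rose by 1.61 ± 0.54 (edgeR adjusted p = 0.0432) with overlapping groups. Without Pre-puber 14 the value was 2.65, and miR-122 passed in 3 of the 7 fits that left out a library. In the study's sperm libraries it stood at 9924 to 13812 CPM before TMM scaling. Of 4 tested HOX-cluster miRNAs, 1 fell, where 15.2% of all tested miRNAs were lower: miR-196b, at 173, 32.0 and 5.47 CPM in Pre-puber and 7.43 to 14.9 CPM in Adult (−2.70 ± 0.82, edgeR adjusted p = 0.029). That value rested on Pre-puber 3a, without which it was −0.78 (edgeR adjusted p = 0.417). In the pluripotency miR-302/miR-371 list, miR-371-5p was the 1 member tested, at 10.4 to 14.0 CPM and 1.65 to 6.50 CPM (−1.59 ± 0.63, edgeR adjusted p = 0.074). miR-211, within the ion channel gene TRPM1, fell from 136.7 to 248 CPM to 26.4 to 93.1 CPM (−1.58 ± 0.46, edgeR adjusted p = 0.0259). It passed in 3 of the 7 fits that left out a library, and not without Pre-puber 14 (−1.25, edgeR adjusted p = 0.0529). The epithelial miR-205 was rarer and had the largest fold among the falls that passed. It went from 24.2, 19.4 and 5.47 CPM to 1.54 to 2.35 CPM (−3.12 ± 0.55, edgeR adjusted p = 0.00361).

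The remaining called miRNAs were outside the lists. miR-32 (log2 fold change 1.35), miR-217 (2.20), miR-212 (2.59) and miR-1248 (2.94) rose. Of these, miR-32 had overlapping groups, and miR-1248 stood at 36.4 CPM in Adult 33 and at 3.76 to 6.24 CPM in the other Adult libraries (1.65 without Adult 33, a value that did not pass). miR-1298, within the serotonin receptor gene HTR2C, stood at 515, 707 and 69.8 CPM in Pre-puber and at 15.9, 172, 28.0 and 26.8 CPM in Adult, with an overlap (−2.84 ± 0.96, edgeR adjusted p = 0.0432, and −4.20 without Adult 20). miR-135a (−1.58), miR-1388 (−1.21), miR-193a-5p (−1.16) and miR-1271a (−0.96) fell as well. Of these 9 miRNAs, miR-212 passed in 5, miR-1248 in 4 and miR-217 in 3 of the 7 fits that left out a library, and the other 6 in 1 or 2.

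The most abundant miRNAs were largely shared. By mean level, 9 of the 10 first miRNAs were in the top 10 of both groups: miR-21, miR-10b, miR-100, miR-99a, let-7g, let-7a, miR-26a, let-7c and let-7f. The tenth was miR-34c in Adult and miR-125b-5p in Pre-puber. miR-21, the first in Adult and known from undifferentiated spermatogonia among many cells, stood at 59120, 68053 and 89197 CPM in Pre-puber and at 83204, 148732, 100493 and 79756 CPM in Adult (log2 fold change 0.51 ± 0.34, edgeR adjusted p = 0.275). miR-10b stood at 79065, 148520 and 89530 CPM and at 54434, 127322, 51417 and 64196 CPM (−0.51 ± 0.35, edgeR adjusted p = 0.282). For both the groups overlapped. The 10 first miRNAs of each library held 77.3 ± 2.69% of annotated counts in Pre-puber (n = 3) and 71.9 ± 4.07% in Adult (n = 4), a difference of −5.47 percentage points (exact two-sided permutation p = 0.114, 0.171 after adjustment over 3 such tests, where the smallest p possible is 0.0286). miRNAs with at least 5 counts numbered 185, 174 and 176 in Pre-puber 3a, 3b and 14 and 179, 171, 186 and 187 in Adult 13, 20, 33 and 4 (difference 2.42, exact permutation p = 0.657). After thinning all libraries to 1 depth the numbers were 160 to 164 and 171 to 178 (difference 13.3, exact permutation p = 0.0286).

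The 13 testis libraries also place the changes between the other stages. Puber means lay between the Pre-puber and Adult means for 22 of the 23 higher miRNAs and 25 of the 28 lower ones. miR-34c averaged 28.1 CPM in Infant and 15913 CPM in Puber (n = 3 each), and miR-449a 4.33 and 2238 CPM. miR-150 averaged 377.2 CPM in Infant and 181 CPM in Puber, and miR-99a 380477 and 137213 CPM. miR-183 was different in that its Infant mean, 16.4 CPM, was as low as in Adult. Pre-puber 14 was above both 3a and 3b for 19 of the 23 higher miRNAs and below both for none. Among the 28 lower ones it was below both for 16 and above both for 7. The shares over all tested miRNAs were not counted here either.

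**Figure D4:**
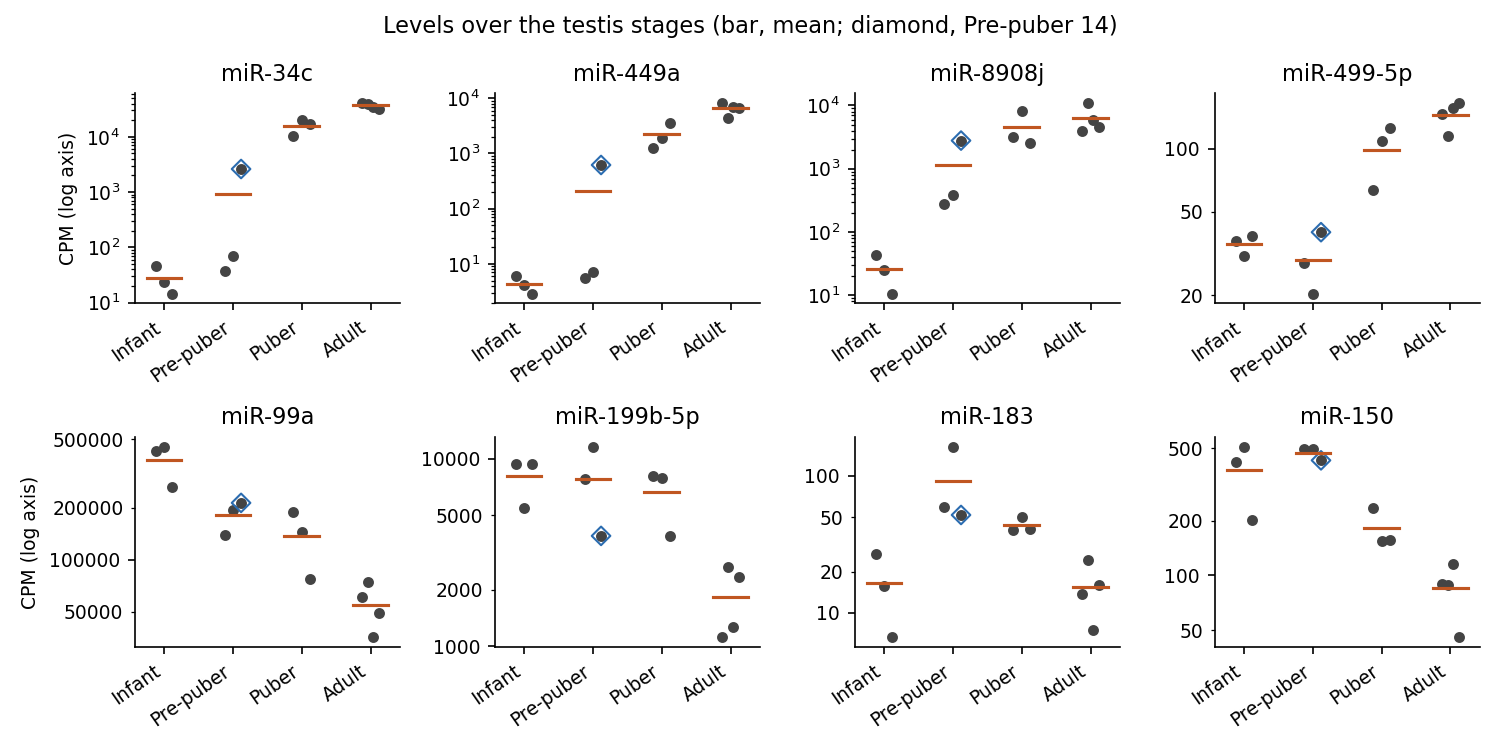
CPM (log axis) in each testis library from Infant to Adult for 4 miRNAs that rose (top) and 4 that fell (bottom) between Pre-puber and Adult; bars are group means and the blue diamond marks Pre-puber 14. miR-34c and miR-449a climb from Infant means of 28.1 and 4.33 CPM, and miR-183 peaks in Pre-puber.

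Scaled by the annotated miRNAs, predicted hairpins were mostly called higher in Adult. Scaled by the hairpins alone, fewer were called, and more of them lower than higher. Of 733 tested, 614 (83.8%) passed, 605 (82.5%) as higher and 9 (1.23%) as lower in Adult, with a median log2 fold change of 3.61 and no overlap between groups for 583 (79.5%). Many entries share sequence: 535 of the 1461 share a stretch of at least 18 bases with another, and 257 are linked into 1 family. Of the entries kept as 1 per family, 72.5% passed in the same fit, 234 (69.9%) as higher and 9 (2.69%) as lower, and 69.0% did not overlap between groups. The largest family had 242 of 253 tested entries higher and none lower (median 3.67). Hairpins with at least 5 counts numbered 461, 303 and 687 in Pre-puber 3a, 3b and 14. In Adult 13, 20, 33 and 4 they numbered 768, 650, 760 and 755. The filter on low counts admits an entry that is high in only 1 stage. The shares that passed as higher or did not overlap are therefore not evidence on the hairpins as a set. The calls depend on the scaling, which was taken from the annotated miRNAs. With TMM scaling over the hairpins alone, 55 of 713 tested were called higher and 92 lower, and the median log2 fold change was 0.82.

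As a share of hairpin and annotated counts together (1 entry kept per annotated name), which needs no scaling, hairpins held 14.0, 12.4 and 13.0% in Pre-puber 3a, 3b and 14 and 17.05, 14.5, 21.6 and 16.04% in Adult 13, 20, 33 and 4. The groups did not overlap (difference 4.14 percentage points, exact permutation p = 0.0571, 0.171 after adjustment over 3 tests). With 1 entry per family of shared sequence they overlapped, at 12.2 to 13.8% in Pre-puber and 12.1 to 19.3% in Adult (difference 1.26, exact permutation p = 0.857). Without the most abundant hairpin the difference was 7.30, and without Adult 33 it was 2.71. The 5 most abundant hairpins held 11.7 to 13.3% in Pre-puber and 9.24 to 17.4% in Adult, with an overlap. All others together held 0.778, 0.477 and 1.31% in Pre-puber and 7.81, 3.82, 4.18 and 5.77% in Adult, and in Puber 2.44 to 4.37% and in Infant 0.341 to 0.469%. The largest family alone held 0.177, 0.112 and 0.438% in Pre-puber and 3.51, 1.91, 1.97 and 2.60% in Adult.

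**Figure D5:**
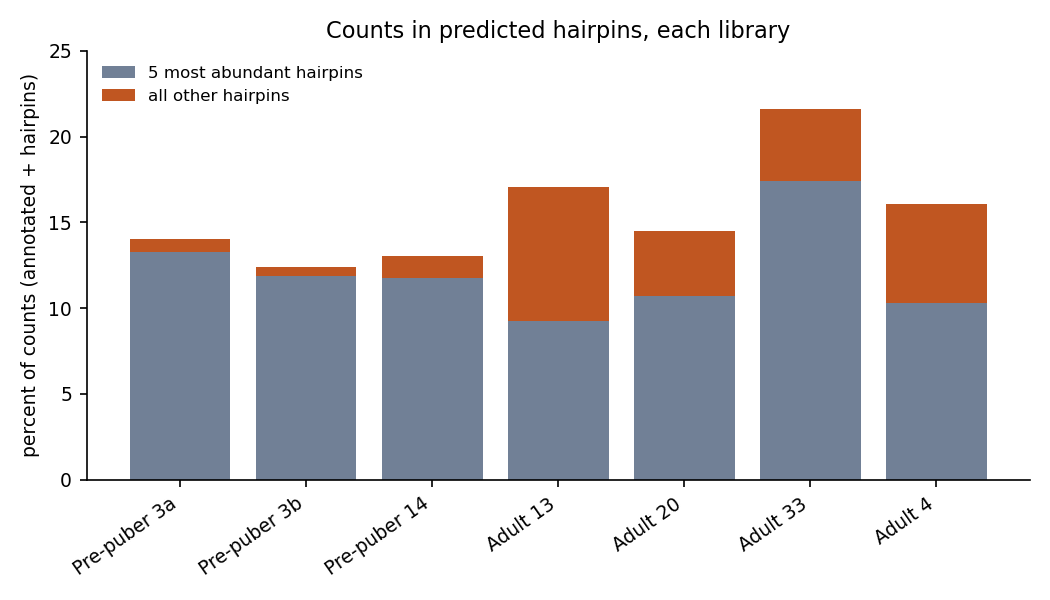
Percent of annotated plus hairpin counts in the 5 most abundant predicted hairpins (grey) and all other hairpins (orange) in each of the 7 libraries. The orange part is 0.477 to 1.31% in Pre-puber and 3.82 to 7.81% in Adult.

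Of the hairpins that fell, 2_3478602 stood at 2043, 1645 and 1386 CPM across Pre-puber 3a, 3b and 14 and at 715, 858, 627 and 769 CPM in Adult 13, 20, 33 and 4. The groups did not overlap, and the log2 fold change was −1.19 ± 0.36 (edgeR adjusted p = 0.011). 3_3841966 went from 575 to 617 CPM to 203 to 378 CPM (−1.14 ± 0.43, edgeR adjusted p = 0.0254). Neither fall passed without Pre-puber 3a (edgeR adjusted p = 0.0644 for 2_3478602 and 0.0739 for 3_3841966), and that of 3_3841966 also did not without Adult 13, 33 or 4 (edgeR adjusted p = 0.0708, 0.0525 and 0.0652). In the fit of the 7 libraries alone neither passed (edgeR adjusted p = 0.0700 and 0.144), and with TMM over hairpins alone their log2 fold changes were −5.04 and −4.86.

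The 4 rising hairpins named here were at most 0.540 CPM in Pre-puber 3a and 3b. The largest log2 fold change among those meeting the naming rule, 6.83 ± 1.58, was that of 12_477608 (edgeR adjusted p = 0.00719), at 0.0674, 0 and 1.68 CPM across Pre-puber 3a, 3b and 14 and at 28.5, 160, 24.2 and 52.7 CPM in Adult (10.02 without Pre-puber 14, 5.94 without Adult 20). 26_2931793 stood at 0.0674, 0.135 and 4.77 CPM and at 93.1, 126.6, 53.04 and 41.9 CPM (5.58 ± 1.42, edgeR adjusted p = 0.00854, and 9.45 without Pre-puber 14). As for miR-34c, every Adult library was higher than Pre-puber 14, which was higher than 3a and 3b. 13_688010 stood at 0.270, 0.135 and 5.61 CPM and at 104, 74.8, 46.4 and 70.6 CPM (5.21 ± 1.38, edgeR adjusted p = 0.00958, and 8.29 without Pre-puber 14). 29_3211085 rose by 5.55 on the log2 scale (edgeR adjusted p = 0.0112, and 0.0591 with TMM over hairpins alone), and Adult 4 was far above the other 3 Adult libraries. Its log2 fold change was 3.22 without Adult 4, 6.14 without Adult 13 and 7.78 without Pre-puber 14. By level, 68.2% of hairpins with a mean under 10 CPM in the higher group rose, beside 82.5% of all tested hairpins. With 10 to 100 CPM 294 of 318 rose, and with 100 to 1000 CPM 90.2%. Of the 8 with 1000 CPM or more 2 rose and 4 fell. These shares rest on the scaling by annotated miRNAs and on entries that share sequence, so they are not evidence on level. The genes that hold these hairpins were not analysed here.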

How the data were processed

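Small RNA was isolated with TRIzol and DNase, per the labels, and libraries were ligated, amplified and size selected. The submitters' processing notes name Trimmomatic (no version) and EquCab3.0. For the aligner and counting program the tool is not given in the sources used here. Deposited count values are whole read counts per entry. The deposited RPM columns equal count over library total within 0.005 and were not used further. One Adult and one Sperm title carry the number 4, and the Adult column was assigned by its prefix, an inference.

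For each annotated name the entry with most counts was kept (22 of 274 names had more than 1). The 13 testis libraries (Infant, Pre-puber, Puber, Adult) were fitted together in edgeR 4.0.16 (R 4.3.3; filterByExpr by group, TMM, quasi-likelihood F test), with Benjamini-Hochberg adjusted p under 0.05. Standard errors come from the F statistic and are approximate. Hairpins used the annotated library sizes and TMM factors. The fit was checked on simulated counts. Alternatives used DESeq2 1.42.0, limma 3.58.1, other scalings, filters and sets of libraries. Shares and numbers of miRNAs were compared by exact permutation over 35 splits.

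Named miRNAs passed the test, averaged 50 CPM or more in 1 group and did not overlap (the 12 largest rises, of which 11 existed, and 12 largest falls). The 10 most abundant per group, called members and 2 to 4 abundant members of each list, and by the same rule 6 hairpins each way were also named; of hairpin falls 5 existed. Some hairpins that met the rule are not reported here. The other called miRNAs were named after their values were seen. Members and lists were chosen with earlier results of these data known. The lists for miR-29, miR-23/24/27 and miR-200, among others, had no annotated member and were not analysed here. RefSeq's gene table (TB-T2T) gave neighbours and host genes only, and mature sequences of annotated miRNAs were not used here.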

Additional observations from a re-analysis of the deposited data

Results flagged for a closer look

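Levels were screened for 1 Adult library far from the other 3, with Dixon's ratio above its 95% critical value. Of 104 values screened 12 stood out, and chance flags about 1 in 20. Adult 33 was highest for miR-451 (1026 CPM, next 107), miR-486-5p (3191 CPM, next 821), miR-17 (3791 CPM, next 2391), miR-1248 (36.4 CPM, next 6.24) and miR-106a (3519 CPM, next 2248), and lowest for miR-9052 (0.138 CPM, next 1.44). Adult 20 was highest for miR-10b (127322 CPM, next 64196), miR-9a (628 CPM, next 368), miR-1298 (172.2 CPM, next 28.0), miR-1388 (2992 CPM, next 1482) and miR-9049 (26.4 CPM, next 11.8). Adult 4 was highest for hairpin 29_3211085 (328.6 CPM, next 27.003).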

How the results depend on the processing

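Annotated miRNAs called were 27.7% of those tested. They were 18.8% (33) with the 7 libraries alone, 15.9% (29, of which 8 higher and 21 lower) with libraries of 1 title number summed and 77.2% with all entries fitted together, and between 24.1% and 35.9% in the other settings. Over the 7 left-out libraries they ranged from 13.7% (without Pre-puber 3a) to 38.0% (without Pre-puber 14). Hairpins called were 83.8% of those tested, 20.6% (147) with TMM over hairpins alone and 71.0% (238) in a refit with 1 entry per family, and 64.9% to 90.2% over left-out libraries. The difference in detected miRNAs was −4.42 at 1 count, −4 at 10 counts, 13.3 after thinning and 0.25 to 5.75 over left-out libraries. The other 2 shares kept their direction, and neither passed the threshold in any alternative run: the 10 most abundant ranged from −7.34 to −4.16 and the hairpin share from 2.71 to 5.07 over left-out libraries, and the latter was 1.26 with 1 entry per family and 7.30 without the most abundant hairpin. With all entries together the log2 fold change turned negative for miR-122 (−0.40), miR-126-5p (−1.64), miR-145 (−2.03), miR-15b (−1.45), miR-16 (−1.30), miR-18a (−0.52), miR-21 (−1.62), miR-217 (−0.013), miR-30b (−1.96), miR-30d (−1.90), miR-32 (−0.93), miR-340-5p (−0.73), miR-374b (−0.92), miR-509a-5p (−1.58), miR-514a (−1.86), miR-93 (−1.11), miR-99b (−2.19) and miR-9a (−1.24). The cause was not tested. No paired analysis was possible because the Adult and Pre-puber libraries share no title number. Adult libraries are the shallower ones, which limits rare miRNAs there.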

Other observations

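Some groups of neighbouring miRNAs in the RefSeq table had no member that passed. Of all tested miRNAs 27.7% passed, so with so few members 0 passing does not set a group apart. In the group miR-532-5p, miR-188-5p, miR-500, miR-362-5p, miR-501-5p, miR-660 and miR-502-5p, 0 of 7 passed the edgeR test. Their log2 fold changes ran from −0.45 to 0.74. In the DLK1-DIO3 group from miR-1185 to miR-369-5p, 0 of the 7 tested of 8 passed, with values from −0.47 to 1.06. The highest was that of miR-409-5p, at 441 to 1560 CPM in Pre-puber and 1739 to 2708 CPM in Adult with no overlap (edgeR adjusted p = 0.107).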
